A study of Bos taurus with 8 samples.

Results

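The genes described here are 10 genes of the amino acid response that depends on the transcription factor ATF4: *ATF4*, *CEBPG*, *DDIT3*, *TRIB3*, *ASNS*, *PSAT1*, *PHGDH*, *CTH*, *CHAC1* and *SESN2*. Their probes were found through the accession printed for each probe on the array, which gave 20 probes for the 10 genes out of 12603 genes matched in all. All 20 probes were detected, that is, 4 or more of the 8 arrays had the spot well above background, so all 10 genes were measured among the 10860 genes with a detected probe. The genes were chosen by their known role and by their difference in log2 signal between low and high maternal nutrition, which was in view when the list was drawn up. The differences of the 10 genes between the nutrition groups are therefore given as a description, without a test.

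Liver RNA came from 4 low-nutrition (LN) and 4 high-nutrition (HN) Japanese Black fetuses at 8.5 months after conception, hybridised to Agilent bovine arrays in 1 colour. The LN dams received 60% and the HN dams 120% of their nutritional requirement through gestation, and no dam was fed at the requirement itself. By the methods of the study, all dams were inseminated with male-sorted semen of the same sire, and liver was taken from the LN fetuses of lowest and the HN fetuses of highest weight. Each array is labelled with 1 fetus and is read so here, while the overall design of the series mentions pooling of RNA by treatment. The LN arrays shared 1 slide and the HN arrays another, so slide and group cannot be told apart. Well above background were between 32635 and 33371 spots per array in LN and between 33254 and 34369 in HN, of 43803, and 0 were saturated. Of the hepatocyte markers, 9 of 10 were measured, *ALB*, *AFP* and *TTR* among them. *ALB* had log2 signals between 17.81 and 17.89 in the 8 livers, near the top of the scale where quantile normalization makes arrays alike, and *AFP* between 16.09 and 17.47.

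When an amino acid runs short or unfolded protein collects in the endoplasmic reticulum, kinases phosphorylate the translation factor eIF2, which slows protein synthesis as a whole but lets ATF4 be translated. ATF4 then binds DNA as a pair with other leucine zipper proteins, C/EBP family members above all, and raises genes for amino acid synthesis, amino acid uptake and tRNA charging. Because ATF4 is set largely at translation, an array, which measures mRNA, does not read its protein. In the liver the response is best known from diets that lack protein or a single essential amino acid.

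The mean log2 signal was higher in LN than in HN for 10 of 10 genes, where 51.6% of all genes with a detected probe were higher and 48.4% lower in LN. The same held for all 20 probes of these genes. The median difference over the 10 genes was 0.31 on the log2 scale, against 0.0075 over all 10860 genes, and the differences ran from 0.064 for *PHGDH* to 0.85 for *ASNS*. A signal more than 25% higher in LN was seen for 5 genes (*ASNS*, *TRIB3*, *CTH*, *ATF4* and *CEBPG*), where 7.82% of all genes were that much higher and 8.63% that much lower in LN. Every LN fetus lay above every HN fetus for 2 genes, *ASNS* and *CTH*, where 2.59% of all genes did, and 0 genes had every LN fetus below every HN fetus (1.56% of all genes, and 4.14% for both directions together). Because the genes were chosen with this contrast in view, these counts describe them and show nothing further. In a whole liver, more cells with a transcript cannot be told apart from more transcript per cell.

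**Figure D1:**
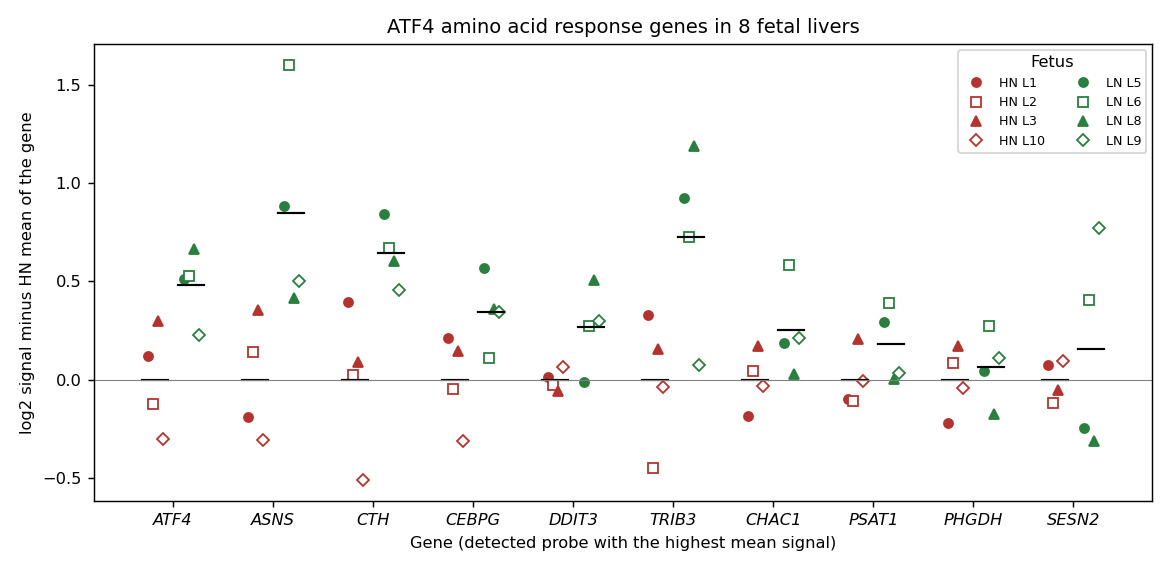
Log2 signal of each of the 10 genes in each fetus, minus the HN mean of that gene, by the detected probe with the highest mean signal. Red points are HN fetuses, green points LN fetuses and black lines group means. The LN mean is above the HN mean for all 10 genes, and the groups are fully apart for *ASNS* and *CTH*.

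The first 4 genes are regulators. *ATF4* (NM_001034342), the transcription factor itself, had log2 signals of 15.91, 15.93, 16.06 and 15.62 in LN fetuses L5, L6, L8 and L9, and of 15.52, 15.28, 15.69 and 15.10 in HN fetuses L1, L2, L3 and L10. Only LN fetus L9, below HN fetus L3, kept the groups from standing apart. The means were 15.88 ± 0.18 in LN and 15.40 ± 0.26 in HN (SD, n = 4 each), a log2 difference of 0.48 (standard error 0.16), or 1.40-fold. The other probes of *ATF4* differed by 0.39 and 0.35.

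*CEBPG* (NM_001034801), a C/EBP protein that pairs with ATF4 on DNA, was 11.32, 10.86, 11.11 and 11.10 in LN fetuses L5, L6, L8 and L9, and 10.96, 10.71, 10.90 and 10.44 in HN fetuses L1, L2, L3 and L10. LN fetus L6 lay below HN fetuses L1 and L3, so the groups overlapped. The difference was 0.35 (standard error 0.15), and 0.40 and 0.24 by its other probes.

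*DDIT3* (NM_001078163) encodes CHOP, a partner of C/EBP proteins that is known for its part in cell death under lasting stress. Its signals were 11.02, 11.31, 11.54 and 11.33 in LN fetuses L5, L6, L8 and L9, and 11.05, 11.004, 10.98 and 11.09 in HN fetuses L1, L2, L3 and L10. The HN fetuses were close together, with an SD of 0.051 against 0.21 in LN, and LN fetus L5 lay among them. The difference was 0.27 (standard error 0.11), and 0.37 by the other probe.

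*TRIB3* (NM_001076103), a pseudokinase that binds ATF4 and CHOP and holds their activity down, was 10.60, 10.40, 10.86 and 9.75 in LN fetuses L5, L6, L8 and L9. In HN fetuses L1, L2, L3 and L10 it was 10.003, 9.22, 9.83 and 9.64. The 3 LN fetuses other than L9 lay above all HN fetuses. The difference was 0.73 (standard error 0.29), or 1.66-fold, and 0.74 by a second probe. The remaining probe, which was dim and well above background on 7 arrays, differed by 0.094 (standard error 0.34), less than its standard error.

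The next 4 genes encode enzymes that make amino acids. *ASNS* (NM_001075653), asparagine synthetase and a classical target of ATF4, had the largest difference of the 10 genes over all 8 fetuses, though *TRIB3* had a larger one without LN fetus L6 (0.73 against 0.60) or HN fetus L1 (0.84 against 0.79). *ASNS* was 8.71, 9.42, 8.24 and 8.32 in LN fetuses L5, L6, L8 and L9, and 7.64, 7.96, 8.18 and 7.52 in HN fetuses L1, L2, L3 and L10. The groups did not overlap, but LN fetus L8 and HN fetus L3 were close, and LN fetus L6 stood highest. The means of 8.67 ± 0.54 and 7.82 ± 0.30 (SD, n = 4 each) differed by 0.85 (standard error 0.31), or 1.803-fold. The other probe differed by 0.94, with LN fetus L9 at 4.44 below HN fetuses L1 and L2, so by that probe the groups overlapped.

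*CTH* (NM_001024567), cystathionine gamma-lyase, makes cysteine in the last step of transsulfuration. Its signals were 8.61, 8.44, 8.37 and 8.23 in LN fetuses L5, L6, L8 and L9, and 8.16, 7.79, 7.86 and 7.26 in HN fetuses L1, L2, L3 and L10. The groups were apart by both probes, narrowly so by this one, between LN fetus L9 and HN fetus L1. The difference was 0.64 (standard error 0.20), or 1.56-fold, and 0.70 (standard error 0.16) by the other probe. *CTH* was the only one of the 10 genes without overlap by every detected probe.

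*PHGDH* and *PSAT1* catalyse the first and the second step of serine synthesis, and both differed little. *PSAT1* (NM_001102150) was 14.65, 14.75, 14.36 and 14.39 in LN fetuses L5, L6, L8 and L9, and 14.26, 14.25, 14.57 and 14.35 in HN fetuses L1, L2, L3 and L10. HN fetus L3 lay above LN fetuses L8 and L9, and the difference was 0.18 (standard error 0.12). *PHGDH* (NM_001035017) was 13.74, 13.97, 13.52 and 13.80 in the LN fetuses and 13.47, 13.78, 13.87 and 13.65 in the HN fetuses, in the same order. Its difference of 0.064 was below its standard error of 0.13, and the groups overlapped almost fully. *PSPH*, which completes serine synthesis and is not one of the 10 genes, differed by 0.72 (standard error 0.48, limma adjusted p = 0.799), or 0.44 without LN fetus L6 and 1.11 without LN fetus L8, from 11.13, 11.74, 9.73 and 11.04 in the LN fetuses and 10.13, 10.09, 10.82 and 9.73 in the HN fetuses.

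The last pair act on other arms of the response. *CHAC1* (NM_001098882), an enzyme that breaks down glutathione, was 5.72, 6.11, 5.56 and 5.74 in LN fetuses L5, L6, L8 and L9, and 5.34, 5.57, 5.70 and 5.50 in HN fetuses L1, L2, L3 and L10. The groups overlapped through LN fetus L8, and the difference was 0.25 (standard error 0.14), and was 0.091 with each array scaled to its 75th percentile and 0.125 with normexp background correction. *SESN2* (NM_001024507), a leucine sensor that restrains mTORC1, was 6.41, 7.06, 6.34 and 7.43 in the LN fetuses and 6.73, 6.54, 6.60 and 6.75 in the HN fetuses. The LN fetuses lay on both sides of the HN fetuses, with an SD of 0.52 against 0.10. The difference of 0.16 (standard error 0.27) was below its standard error. It was -0.049 without LN fetus L9, 0.29 without LN fetus L5 and 0.31 without LN fetus L8. With scaling to the 75th percentile it was 0.036, and with normexp 0.104.

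**Figure D2:**
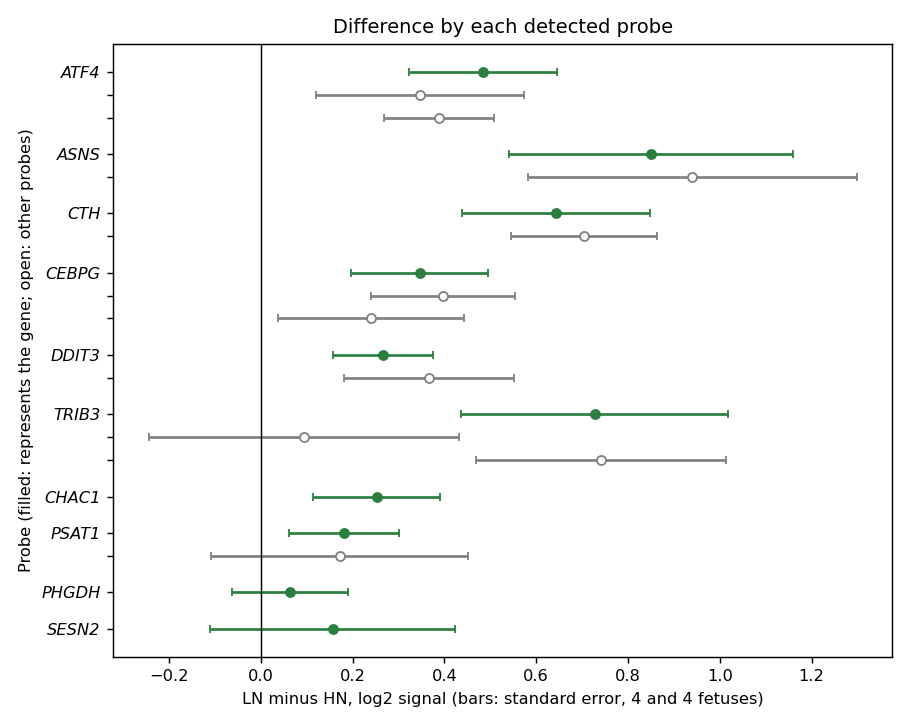
LN minus HN difference in log2 signal for each of the 20 probes, with bars of 1 standard error (4 fetuses per group). Filled points are the probes that represent the genes and open points the other probes. All points lie above 0, and the bars of *PHGDH*, *SESN2*, the dim *TRIB3* probe and the second *PSAT1* probe cross it.

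Single fetuses weighed differently on different genes. Among the 8 livers, LN fetus L6 was highest for 4 genes (*ASNS*, *CHAC1*, *PSAT1* and *PHGDH*), LN fetus L8 for 3 (*ATF4*, *DDIT3* and *TRIB3*), LN fetus L5 for 2 (*CTH* and *CEBPG*) and LN fetus L9 for *SESN2*. HN fetuses were highest for 0 genes. Such counts are only a description, as the genes were chosen with the contrast of LN and HN in view. HN fetus L10 was lowest for *ATF4*, *ASNS*, *CTH* and *CEBPG*, 4 of the 5 genes more than 25% higher in LN, and without it the difference was 0.38 for *ATF4*, 0.75 for *ASNS*, 0.47 for *CTH* and 0.24 for *CEBPG*. Without LN fetus L6, the difference was 0.60 for *ASNS*, 0.11 for *PSAT1* and 0.14 for *CHAC1*. *TRIB3* was 0.58 higher without LN fetus L8 and 0.945 higher without LN fetus L9. The spread within groups was like that of other genes, with a median SD of 0.22 over the 10 genes and 0.23 over all genes.

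Whether these genes also went together among fetuses of the same group is a question that does not use the contrast between LN and HN. The group mean was removed from each gene, and *ATF4* was correlated with the other 9 genes over the 8 fetuses, with an exact 2-sided permutation of fetuses within groups (576 arrangements, smallest possible p = 0.00174). The highest correlation was with *TRIB3* (Pearson's r = 0.73, exact permutation p = 0.0503, and Spearman's rho = 0.74, exact permutation p = 0.0556). After Benjamini-Hochberg adjustment over the 9 genes these were 0.333 and 0.5, and 0 of 9 genes passed an adjusted p of 0.05. Without the pair of fetuses farthest from the median of *ATF4*, LN fetus L9 and HN fetus L10, r with *TRIB3* was 0.81. With the mean over the detected probes of each gene it was 0.28.

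For *CTH* the correlation with *ATF4* was r = 0.69 (exact permutation p = 0.111, adjusted p = 0.333) and rho = 0.60 (exact permutation p = 0.198, adjusted p = 0.531). Without those fetuses r was 0.044, and it was 0.40 without HN fetus L10 alone and 0.66 without LN fetus L9 alone. Leaving out the fetuses farthest in *ATF4* narrows its range, which can lower r by itself. For *CEBPG* it was r = 0.58 (exact permutation p = 0.203, adjusted p = 0.457) and rho = 0.55 (exact permutation p = 0.212, adjusted p = 0.531), and r = 0.35 without them. *ASNS* and *PSAT1* had r of 0.34 and 0.35 with *ATF4*, of which the first was -0.13 without those fetuses and the second -0.44 with the mean over detected probes. *DDIT3*, *CHAC1* and *PHGDH* lay between -0.082 and 0.057, with signs that turned when single fetuses were left out, to between -0.44 and 0.15 for *DDIT3*, -0.28 and 0.33 for *CHAC1* and -0.52 and 0.22 for *PHGDH*. *SESN2* ran against it at r = -0.51 (exact permutation p = 0.0903, adjusted p = 0.333), with rho = -0.45 (exact permutation p = 0.236, adjusted p = 0.531), and r was -0.079 without the same fetuses and -0.855 with the mean over detected probes. Each group, and so each slide, holds 4 fetuses, too few for a correlation within it.

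Over all 45 pairs of the 10 genes the median r was 0.057, with 23 pairs (51.1%) above 0, against a median of 0.001 over all pairs of measured genes. An r of at least 0.7 was reached by 7 pairs, or 15.6%, against 6.23% of all gene pairs. With the mean over the detected probes of each gene, 4 of the 7 were lower than that, *ASNS* with *CHAC1* at 0.55, *ASNS* with *PHGDH* at 0.41, *ASNS* with *PSAT1* at 0.13 and *ATF4* with *TRIB3* at 0.28. Of these 7 pairs, 5 joined *ASNS*, *PSAT1*, *CHAC1* and *PHGDH*, the genes that were highest in LN fetus L6 and were grouped here after their values were seen. The other pairs were *CTH* with *CEBPG* and *ATF4* with *TRIB3*. *CHAC1* and *PHGDH* were closest, at r = 0.94 (exact permutation p = 0.00521, adjusted over 45 pairs 0.234) and rho = 0.93 (exact permutation p = 0.00347, adjusted p = 0.156). Their r was 0.99 without LN fetus L6 and HN fetus L3, the farthest from the median of *CHAC1*, and at least 0.88 in each processing alternative, where both genes have 1 detected probe. *ASNS* and *CHAC1* had r = 0.91 (exact permutation p = 0.0139, adjusted p = 0.312) and rho = 0.81 (exact permutation p = 0.0365, adjusted p = 0.413), with r = 0.54 without those 2 fetuses. *CTH* and *CEBPG* had r = 0.79 (exact permutation p = 0.0347, adjusted p = 0.312) and rho = 0.76 (exact permutation p = 0.0642, adjusted p = 0.413), with r = 0.45 without HN fetuses L1 and L10. The lowest was *TRIB3* with *SESN2*, at r = -0.68 (exact permutation p = 0.115, adjusted p = 0.469), rho = -0.64 (exact permutation p = 0.191, adjusted p = 0.483) and r = -0.69 without LN fetus L9 and HN fetus L2, but -0.23 without LN fetus L9 alone and -0.89 without HN fetus L2 alone, and between -0.70 and -0.30 in the processing alternatives. None of the 45 pairs passed an adjusted p of 0.05 in this test, and 6 had an unadjusted p of at most 0.05.

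**Figure D3:**
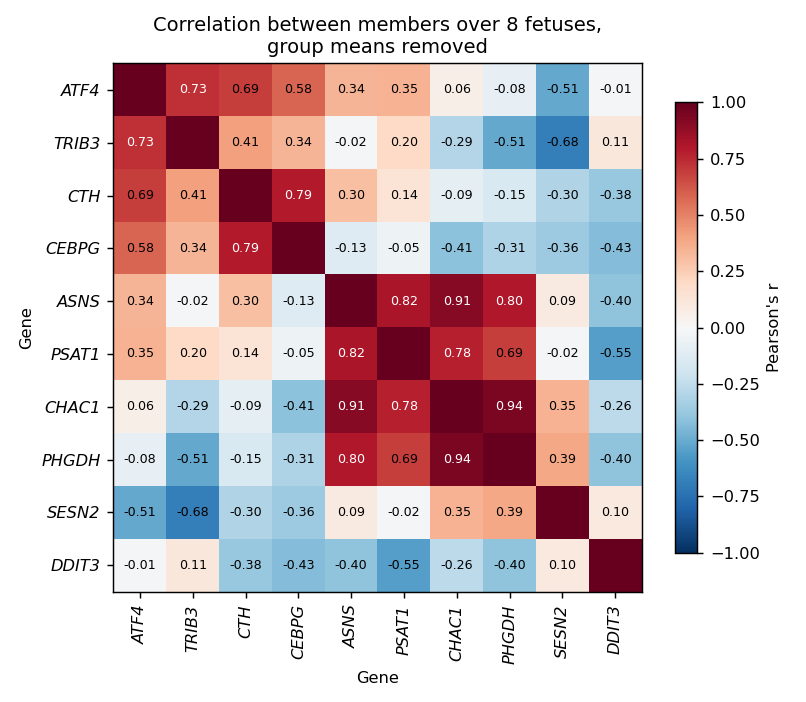
Pearson's r between each pair of the 10 genes over 8 fetuses after the mean of each group was removed, from blue (-1) to red (1). The genes were placed in this order by hand after their values were seen. *ASNS*, *PSAT1*, *CHAC1* and *PHGDH* had r between 0.69 and 0.94 with each other. *ATF4*, *TRIB3*, *CTH* and *CEBPG* had r between 0.34 and 0.79 and do not form a distinct block. Values as high as their lowest were seen for *ATF4* with *ASNS* (0.34) and *PSAT1* (0.35), and for *SESN2* with *CHAC1* (0.35) and *PHGDH* (0.39).

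Different probes of a gene give a measure of how well single fetuses were resolved. Both *CTH* probes moved together within groups at r = 0.995 (exact permutation p = 0.00174, adjusted p = 0.0113, the smallest p possible) and rho = 0.98 (adjusted p = 0.0113). The 2 brighter *TRIB3* probes did so at r = 0.97 (exact permutation p = 0.00347, adjusted p = 0.0150) and rho = 0.93 (adjusted p = 0.0451). *CEBPG* had 1 pair of probes at r = 0.99 (exact permutation p = 0.00174, adjusted p = 0.0113) and rho = 0.93 (adjusted p = 0.0113). The other 10 of 13 probe pairs did not pass. Among them, the dim *TRIB3* probe had r of -0.175 and -0.233 with the brighter probes (exact permutation p = 0.708 and 0.602). The brightest *ATF4* probe had r of 0.62 and 0.34 with its other probes (exact permutation p = 0.0747 and 0.399), and the *ASNS* probes had r = 0.44 (exact permutation p = 0.399).

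Outside the 10 genes, the gene closest to *ATF4* over the 8 fetuses, after the group means were removed, was *ENO4* (r = 0.97), followed by *ASH2L* (0.96), *LPXN* (0.95), *POLE* (0.95) and *ATG5* (0.94). Closest to the mean of the 10 genes were *PLEKHO1* (r = 0.98), *RAPGEF4* (0.98), *YTHDC2* (0.98), *IKZF5* (0.97) and *KDR* (0.97). These are the highest values over all measured genes on 8 fetuses and are given as a description. Of these genes *ATG5*, for autophagosome formation, is in the lists of ATF4 targets below. *POLE*, a subunit of a DNA polymerase, was the only one with every LN fetus above every HN fetus, by 0.32. *ENO4*, *LPXN* and *PLEKHO1* had a lower mean in LN, by -0.12, -0.20 and -0.045, and the rest a higher one.

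The other genes of the pathway were taken from 7 lists, which held 111 genes with a detected probe besides the 10 and were also drawn up with results of these arrays known. By limma, 0 of them reached 0.05 in adjusted p (the lowest was 0.725), with 15 higher and 1 lower in LN at an unadjusted p of 0.05. On the whole array 0 of 33439 probes (0.0%) passed, and 1119 (3.35%) were higher and 994 (2.97%) lower at an unadjusted p of 0.05. These are counts of all detected probes, while each listed gene was counted by its brightest probe, so the units differ. Scaled to the 75th percentile, the unadjusted counts for the array were 631 and 2182. The methods' t-test, which the study names for other measurements than the arrays, gave 0 probes after adjustment and 2285 before. Of the 111 genes 70, or 63.1%, had a higher mean in LN, against 51.6% of all genes, with a median difference of 0.081. For 9 genes every LN fetus lay above every HN fetus, as it did for 2.59% of all genes, and for 0 genes below (1.56% of all genes). Well-known targets such as *FGF21*, *STC2* and *SLC7A11* had no matched probe and were not analysed here.

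Upstream of ATF4, the 3 eIF2 kinases with a probe were not higher in LN than in HN by the mean of their brightest probe. *EIF2AK1*, the heme-regulated kinase, differed by -0.002 (standard error 0.061, limma adjusted p = 0.998), and by 0.14 with its other probe. *EIF2AK2*, activated by double-stranded RNA, differed by -0.046 (standard error 0.24, limma adjusted p = 0.981), and *EIF2AK3*, the PERK kinase of the endoplasmic reticulum, by -0.12 (standard error 0.046, limma adjusted p = 0.858), and by -0.05 and -0.44 with its other probes. *EIF2AK4*, the amino acid sensor GCN2, and its partner *GCN1* had no matched probe and were not analysed here. The list held eIF2 kinases, their regulators, subunits of eIF2 and eIF2B, related initiation factors and a phosphatase subunit. In it 11 of 17 genes were higher, with a median of 0.17, and the groups were apart for 3. These were *EIF2S2* (0.45, standard error 0.12), *EIF2S3* (0.25, standard error 0.062) and *EIF2A* (0.21, standard error 0.076), of which the first pair are subunits of eIF2 itself, with limma adjusted p of 0.760, 0.785 and 0.793. *EIF2S2* was between 12.98 and 13.21 in LN and between 12.27 and 12.75 in HN. *EIF2D* differed by 0.45 (standard error 0.23), or 0.26 without HN fetus L2, and *EIF2B4* by -0.10 (standard error 0.18), or -0.015 without HN fetus L1 and -0.22 without HN fetus L3.

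Among leucine zipper factors related to ATF4, 14 of 19 were higher in LN, with overlapping groups for every one and a median of 0.098, which was 0.046 with scaling to the 75th percentile, 0.035 without LN fetus L9 and 0.171 without LN fetus L5. *ATF3*, a stress-induced repressor, differed by 0.88 (standard error 0.83, limma adjusted p = 0.850), with LN fetuses from 9.40 in L5 to 12.96 in L8. Its difference was 0.31 without LN fetus L8 and 1.49 without LN fetus L5. *JUN*, an immediate early gene, differed by 0.69 (standard error 0.73), and by 0.58 and 0.13 with its other probes. Its difference was 0.20 without LN fetus L8 and 1.13 without LN fetus L5. The lowest values were those of *CREB3L3*, a liver factor of lipid metabolism, at -0.37 (standard error 0.22), or -0.56 without HN fetus L3, and *BATF3* at -0.19 (standard error 0.21), or -0.079 without HN fetus L3 and -0.35 without HN fetus L2.

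ATF4 targets for amino acid synthesis and one-carbon metabolism were split evenly, with 8 of 16 genes higher and a median of 0.001. *MTHFD1L*, a mitochondrial enzyme of formate production, was 5.57, 5.24, 5.20 and 4.97 in LN fetuses L5, L6, L8 and L9, and 4.79, 4.72, 4.53 and 4.35 in HN fetuses L1, L2, L3 and L10. The groups did not overlap, and the difference of 0.65 (standard error 0.16) had a limma adjusted p of 0.760. Its other probe differed by 0.29. *ASS1*, of the urea cycle, and *GOT1*, aspartate aminotransferase, had the lowest values, at -0.31 (standard error 0.30), or -0.15 without LN fetus L5, and -0.20 (standard error 0.38), or 0.059 without HN fetus L1.

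Of 8 amino acid transporters with a detected probe, 4 were higher in LN, with a median of 0.13. *SLC1A4*, a carrier of alanine, serine and cysteine, was 11.09, 11.45, 11.06 and 11.09 in LN fetuses L5, L6, L8 and L9, and 10.52, 10.32, 10.73 and 9.998 in HN fetuses L1, L2, L3 and L10. The groups were clearly apart, and the difference of 0.78 (standard error 0.18) had the lowest limma adjusted p of the 111 genes, 0.725. Its other probes differed by 0.51 and 0.81. *SLC7A5*, the large neutral amino acid carrier, differed by 0.73 (standard error 0.39, limma adjusted p = 0.785), with LN fetuses L5 and L6 highest at 8.52 and 7.83, and by 0.41 without LN fetus L5. *SLC38A7* differed by -0.31 (standard error 0.10, limma adjusted p = 0.785) and by 0.11 and -0.75 by its other probes, and *SLC6A9*, a glycine carrier, by -0.12 by its brightest probe, or -0.02 without LN fetus L8, and 0.36 by its other probe, so for both genes the direction depends on the probe.

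In the list of stress, growth and tRNA synthetase targets 22 of 32 genes were higher, with a median of 0.25, and of 0.16 without HN fetus L10. Set apart after their values were seen and with no test of a difference, 10 of 11 tRNA synthetases were higher, at a median of 0.46, and 12 of the 21 remaining genes, at a median of 0.069. *GDF15*, a secreted stress hormone, was 7.05, 7.85, 8.63 and 7.59 in LN fetuses L5, L6, L8 and L9, and 6.81, 6.50, 6.61 and 7.22 in HN fetuses L1, L2, L3 and L10. LN fetus L5 lay below HN fetus L10, and the difference was 1.00 (standard error 0.36, limma adjusted p = 0.760). The groups were apart for *AARS1* (0.35), *CARS1* (0.46), *MARS1* (0.53) and *TARS1* (0.52), which load alanine, cysteine, methionine and threonine on their tRNAs, each with a limma adjusted p of 0.760. *GARS1*, for glycine, differed by 0.67 (standard error 0.24), while *WARS1*, for tryptophan, differed by -0.31 (standard error 0.26), or -0.099 without LN fetus L9. *GADD45B*, a stress gene of growth arrest, had the lowest value, -0.74 (standard error 0.74), or -0.26 without LN fetus L5.

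Relatives of the 10 genes in glutathione metabolism and in the sestrin pathway had a median of 0.000, with 7 of 13 higher. *CASTOR1* is counted among these, though its means were equal to 3 decimals (9.258 in LN and in HN). *GCLC*, which starts glutathione synthesis, differed by 0.39 (standard error 0.26), or 0.17 without HN fetus L2, *CHAC2*, the relative of *CHAC1*, by 0.28 (standard error 0.37), or 0.017 without LN fetus L5, *OPLAH* by -0.27 (standard error 0.42), or -0.041 without HN fetus L1, and *GGT1* by -0.24 (standard error 0.35), or 0.005 without HN fetus L10. Among tribbles and AKT genes 4 of 6 were higher, with a median of 0.12 that was 0.025 with scaling to the 75th percentile, 0.059 without HN fetus L3 and 0.239 in the authors' table. *TRIB1* and *TRIB2*, relatives of *TRIB3*, differed by 0.52 (standard error 0.42), or 0.19 without LN fetus L8, and 0.26 (standard error 0.16), or 0.40 without HN fetus L1. *AKT1*, the kinase that TRIB3 binds, differed by -0.11 (standard error 0.26), or 0.048 without LN fetus L6, and *AKT2* by -0.42 (standard error 0.23), or -0.25 without LN fetus L9. Every one of these 8 genes had a limma adjusted p over 0.05 and overlapping groups.

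**Figure D4:**
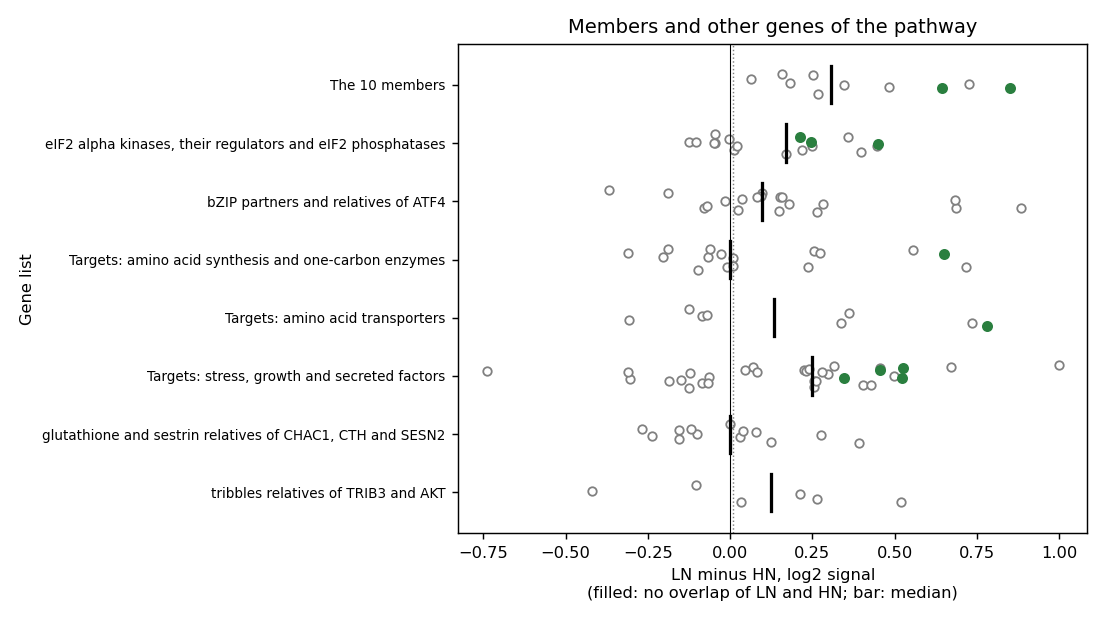
LN minus HN difference in log2 signal of the 10 genes and of 111 other genes in 7 lists of the pathway, 1 point per gene. Filled points are genes without overlap between LN and HN, black bars list medians, and the dotted line the median of all genes, 0.0075. The medians are 0.31 for the 10 genes and between 0.000 and 0.25 for the lists.

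Markers of blood cells are given beside these values, of which 0 reached 0.05 in limma adjusted p, the lowest being 0.785 for erythroid and 0.760 for myeloid markers. Of 7 detected erythroid markers, all 7 had a higher mean in LN with overlapping groups and a median of 1.32, and their summed log2 signal ran from 13.83 to 17.09 in LN and from 12.94 to 14.98 in HN. *SLC4A1*, *KLF1*, *EPB42* and *RHAG* had a probe that was not detected. Of 9 neutrophil and myeloid markers 8 were higher, with a median of 0.91 and summed signals of 13.26 to 14.81 in LN and 12.40 to 13.68 in HN, and *ELANE*, *MPO* and *CATHL4* had every LN fetus above every HN fetus. The erythroid sum was highest in LN fetus L5 and the myeloid sum in LN fetus L9. The endothelial and cholangiocyte sums were highest in LN fetus L6, at 14.09 and 13.42, the fetus in which 4 of the 10 genes were highest. Single markers did not all follow these sums. *KRT19* was highest in that fetus (13.08), but *KRT7*, *EPCAM*, *CFTR* and *SPP1* were highest in others. *PECAM1*, *CDH5*, *TEK* and *KDR*, the last named above for following the mean of the 10 genes, were highest there. *LYVE1* was level there with LN fetus L9. *STAB2* and *VWF* were highest in other fetuses, and *CLEC4G* was lowest in LN fetus L6 (8.02). The hepatocyte markers had a median difference of 0.007, macrophage markers -0.090, lymphocyte markers -0.14 (6 of 6 lower), endothelial markers 0.088, stellate and fibroblast markers -0.16, cholangiocyte markers 0.006 and the 2 detected megakaryocyte markers 1.02 (*PF4*) and -0.03 (*ITGA2B*). The part of these cells in the differences of the 10 genes was not tested.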

How the data were processed

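Total liver RNA from 8 fetuses was labelled with Cy3 and hybridised to 1-colour Agilent arrays. The authors deposited scanner files with the intensity of each spot after background subtraction and detrending in Agilent Feature Extraction 11.0.1.1, and a table of log2 values quantile normalized between arrays. Here, the deposited intensity was taken to log2 without control and outlier spots, averaged per probe, and quantile normalized across 43637 probes. Detection required a spot well above background on 4 or more arrays, which 33439 probes met. Accessions of 26740 probes matched 12603 genes of the ARS-UCD2.0 reference table. The array was designed on an older build, so coordinates are left out. Each gene stands with its brightest detected probe.

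LN and HN were compared over all detected probes with limma 3.58.1 in R 4.3.3, 2-sided, with Benjamini-Hochberg adjustment. Correlations were tested by exact permutation within groups. The functions were tested on simulated data. The number of arrays limits the precision, and p-values measure only the spread between these samples.

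The members and lists were chosen with earlier results of these data known. Genes named outside the members are the eIF2 kinases, the 2 with the largest difference per direction in each list, those of the lists without overlap, and the 5 closest to *ATF4* and to the mean of the members. Alternatives were scaling to the 75th percentile, normexp (offset 50, on spot and background medians), the authors' log2 table, other filters, the mean over probes, each fetus left out, eBayes with trend and robust settings, slide position as a block and the methods' t-test (named there for other data). No probe or promoter sequences were used here, so the planned motif search was not run.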

Additional observations from a re-analysis of the deposited data

Results flagged for a closer look

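The 10 members, the genes named from the pathway lists and those named for following *ATF4* or the mean of the members were checked. In their 112 groups of 4 fetuses, 8 values far from the other 3 were found, where chance gives about 5% of groups. None of the 10 members was among them. *EIF2S2* had a log2 signal of 13.21 in LN fetus L5, above 12.98 to 12.99 elsewhere in LN, while HN fetus L10 had 12.27, below 12.68 to 12.75 elsewhere in HN. *SLC1A4* was 11.45 in LN fetus L6, above 11.06 to 11.09 in the others. *GGT1* was 5.58 in LN fetus L8, above 4.78 to 4.89. *TRIB2* was 11.98 in LN fetus L5, below 12.28 to 12.33, and 12.38 in HN fetus L1, above 11.78 to 11.88. *LPXN* and *ATG5*, which were named for following *ATF4*, were lowest in LN fetus L9, at 6.96 against 7.34 to 7.37 and at 8.44 against 8.71 to 8.75.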

How the results depend on the processing

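All 10 members were higher in LN under each of the 6 processing alternatives, and 9 were without LN fetus L6, LN fetus L9 or HN fetus L1. The median over the members was between 0.28 and 0.32 under those alternatives and between 0.27 and 0.35 with each fetus left out. *PHGDH* was -0.009 without HN fetus L1 and *SESN2* -0.049 without LN fetus L9. The number of members without overlap was 2 to 4 with each fetus left out, 4 without LN fetus L9 and 4 without HN fetus L3, and 3 with scaling to the 75th percentile. The median of the amino acid synthesis list lay between -0.021 and 0.056 over all settings, so its sign depends on the setting. The median of the eIF2 list was 0.143 with that scaling, 0.133 with normexp, and 0.13 to 0.20 with each fetus left out. The transporter list had a median of 0.298 with no filter on dim probes and 0.067 to 0.24 with each fetus left out. Which of the 7 lists had the highest median changed with the setting. The number of probes past the adjusted p was 0 to 1 with each fetus left out, with 1 probe without LN fetus L6, and 0 under every other setting run. Of 34 genes named from the lists, 21 moved by over 1.5 times when 1 fetus was left out, a check chosen after seeing the data, and *GOT1* (0.059 without HN fetus L1), *GGT1* (0.005 without HN fetus L10) and *AKT1* (0.048 without LN fetus L6) changed sign. At an unadjusted p of 0.05 there were 1343 probes without HN fetus L10, against 2113. The number of members correlated with *ATF4* past the threshold was 0 under all 16 settings. The cause of these shifts was not tested. Fetuses could not be paired by animal, because the fetus numbers of LN and HN are animal names that the groups do not share. Position on the slide, which joins 1 LN and 1 HN array, gave as a block 0 probes past the adjusted p and 1672 at an unadjusted p of 0.05.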
